A study of Homo sapiens with 6 samples.

Results

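GAS5, SNHG1, SNHG3, SNHG5, SNHG6, SNHG7, SNHG8, SNHG12, SNHG15 and SNHG16 are genes whose introns hold small nucleolar RNAs (snoRNAs) and whose spliced exons form a long non-coding RNA. They were chosen by name, as 10 of the 20786 genes with a spliced transcript in the assemblies, and they lie in 10 of the 117001 loci of the authors' pooled table. HEK293 is an established human embryonic kidney line. Total RNA depleted of ribosomal RNA was sequenced from 3 untreated control libraries and from 3 libraries of cells that had spent 30 minutes in a tube in a 45°C water bath, all taken from cultures grown at 37°C in DMEM with serum. The labels do not say whether the 3 libraries of a group came from separate cultures, so p-values measure the spread between these libraries, which may be technical. The comparison asks how heat shock changed the level of these host RNAs and the share of each locus found in spliced transcripts. Of 6 genes usually expressed in this line, all 6 passed the minimum level as a mean over the libraries. VIM lay between 85.3 and 929 FPKM, KRT18 between 7.86 and 34.5, NEFL between 2.45 and 12.96 and NEFM between 1.44 and 8.92. KRT8 ranged from 0 in control 3 to 16.6 FPKM in heat shock 2. PAX2 was low, from 0.159 FPKM in control 3 to 2.75 FPKM in heat shock 3. Of 6 markers of other cell types, PTPRC, ALB and COL3A1 were at 0.344 FPKM or less in every library, PECAM1 reached 0.883 FPKM, and CDH5 was at 2.81 FPKM in control 2 and 2.78 FPKM in heat shock 3 and at 0.424 FPKM or less in the others. COL1A1, a collagen of fibroblasts, was at 1.997 to 4.16 FPKM and was the only one to pass the minimum as deposited.

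A snoRNA host gene is transcribed by RNA polymerase II, and its introns are trimmed after splicing to release the snoRNAs. Box C/D snoRNAs guide the methylation of ribose in ribosomal RNA and box H/ACA snoRNAs guide the conversion of uridine to pseudouridine, while a few, U17 (SNORA73) among them, take part in the cleavage of the ribosomal precursor. The spliced exons of many of these genes hold only short reading frames, and their RNA is known to be degraded by nonsense-mediated decay when it is translated. Several begin with a pyrimidine tract at the start site, the TOP motif that they share with ribosomal protein genes.

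In the hg19 positions used by the files, 33 snoRNAs were placed in these genes, 25 of box C/D and 8 of box H/ACA, and each of the 33 lay in an intron of its own. GAS5 (chr1:173833039-173837125, minus strand) has 12 exons in 632 nt of spliced RNA, and 10 of its introns hold a snoRNA. SNHG1 (chr11:62619460-62623360, minus strand) has 11 exons and 8 snoRNAs. SNHG12 (chr1:28905050-28908366, minus strand) has 6 exons and 4 snoRNAs. The other 7 genes hold 1 to 3 each. The sequences of 5 of them are shown because they are the ones that recur in the values below, inside assembled exons or as an intronic line. They were read from GRCh37 on the strand of the host, and capitals mark the C box (TGATGA), the D box (CTGA) or the ACA box near the end, where those letters were found. Introns are numbered on the annotated form with most exons. For SNHG3 this is a 4-exon form that was listed at 0 FPKM in every library, while the form listed above 0 has 3 exons.
SNORA61, intron 4 of SNHG12 (chr1:28906276-28906405): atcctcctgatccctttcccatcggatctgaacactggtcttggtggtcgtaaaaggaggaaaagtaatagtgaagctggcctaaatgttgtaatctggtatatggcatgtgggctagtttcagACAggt
SNORA16A, intron 2 of SNHG12 (chr1:28907432-28907565): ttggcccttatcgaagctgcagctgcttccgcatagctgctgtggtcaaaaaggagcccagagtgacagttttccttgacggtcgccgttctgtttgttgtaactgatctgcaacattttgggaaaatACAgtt
SNORD47, intron 10 of GAS5 (chr1:173833507-173833583): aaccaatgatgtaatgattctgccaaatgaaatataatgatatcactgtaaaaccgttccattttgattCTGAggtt
SNORD22, intron 9 of SNHG1 (chr11:62620382-62620507): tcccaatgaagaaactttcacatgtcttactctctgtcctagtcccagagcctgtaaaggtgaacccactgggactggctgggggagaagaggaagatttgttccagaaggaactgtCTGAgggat
SNORA73B, intron 3 of SNHG3 (chr1:28835071-28835274): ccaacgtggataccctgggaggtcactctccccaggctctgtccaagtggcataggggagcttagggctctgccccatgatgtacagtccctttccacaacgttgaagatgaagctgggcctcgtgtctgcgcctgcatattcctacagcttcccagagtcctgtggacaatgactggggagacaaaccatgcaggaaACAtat

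The start sites were read from the same annotation. A run of at least 5 pyrimidines led by C and starting within 10 bases of the annotated start was found at 6 of the 10 genes, against 31.5% of 19734 genes. Windows of 15 bases before the start and 25 bases from it on are shown for 4 of them to make the tract visible, with the run in capitals.
GAS5 (chr1:173837101-173837140, minus strand): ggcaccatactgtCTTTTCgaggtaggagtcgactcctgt
SNHG5 (chr6:86388427-86388466, minus strand): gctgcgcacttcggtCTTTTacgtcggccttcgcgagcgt
SNHG8 (chr4:119199902-119199941, plus strand): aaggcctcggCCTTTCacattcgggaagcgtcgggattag
SNHG16 (chr17:74553831-74553870, plus strand): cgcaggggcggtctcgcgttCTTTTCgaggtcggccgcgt
In the 300 bases around the same starts (250 before, 50 from the start on), TTCNNGAA, the core of a heat shock element, was found in SNHG8 alone, against 6.57% of all genes, and GAANNTTC in none of the 10, against 5.77%. Both motifs read the same on either strand. A heat shock element of 3 units, which joins both at the same spacing and so contains them, was found in none of them, against 0.441%. TATAAA on either strand was found in 2 (SNHG1 and SNHG7), against 9.14%. In the RefSeq promoter table on GRCh38.p14, which held 8 of the 10 genes, GAS5 starts at another site, and there a 3-unit element was found in its window, against 0.487% of 27305 promoters. No pyrimidine run led by C was found at that GAS5 start, so the tract shown above and the element belong to different start sites. A run of at least 5 was found at 5 of these 8 genes, against 33.3%. A match of letters is a description and no site.

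Before the members are compared, the libraries have to be described, since they differed for nearly every gene. The value of a gene was the sum of the FPKM of its spliced transcript lines, annotated or assembled. FPKM are fragments scaled to transcript length and to the mapped fragments of the library, so the deposited values hold no counts, and depth was known only as coverage per FPKM, with the deepest library at 2.03 times the shallowest. A common factor was taken for each library as the median ratio to the mean library over 789 genes above 10 FPKM in all 6 libraries. It was 0.948, 0.430 and 0.953 in the control and 2.16, 2.36 and 0.483 in the heat shock libraries. Control 2 and heat shock 3 thus stood apart from the others of their group, and they also had a low share of FPKM times length in spliced lines, 28.2% and 28.7%, against 38.8% to 59.9% in the other 4. Each member is therefore given as deposited and divided by this factor, and it cannot be told from these values whether the factor follows the treatment, the RNA or the libraries.

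As deposited, 9 of the 10 host genes had a higher mean log2 value after heat shock, and their median log2 fold change was 0.93 beside 0.52 for all 11186 genes tested, of which 78.9% were positive. Every member had a mean above 10 FPKM, and for the 2373 genes whose mean reached 10 FPKM the median was 0.86 with 95.5% positive, so the members lay close to genes of like level. None of the 10 was called at an adjusted p under 0.05 (limma, Benjamini-Hochberg over all genes), and the lowest adjusted p was 0.764. Over all genes 3 were called higher (0.0268%) and none lower (0%). At an unadjusted p under 0.05, none of the 10 passed, against 444 genes higher (3.97%) and 141 lower (1.26%). The heat shock libraries lay above all control libraries for SNHG12 alone, against 3.96% of all genes, and below them for none, against 1.68%. 

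Divided by the common factor, 6 of the 10 were higher and 4 lower, with a median of 0.04 beside -0.18 for the 11945 genes tested on this scale, of which 32.2% were positive. For the 2040 genes whose mean reached 10 on this scale the median was -0.0040 with 48.7% positive. No gene at all was called in either direction (0% higher, 0% lower), and the lowest adjusted p among the 10 was 0.937. At an unadjusted p under 0.05, SNHG12 passed, against 111 genes higher (0.929%) and 358 lower (3%). SNHG5 and SNHG12 lay above all controls in every heat shock library, against 2.29% of all genes, and SNHG3 and SNHG16 below, against 6.61%. 

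**Figure D1:**
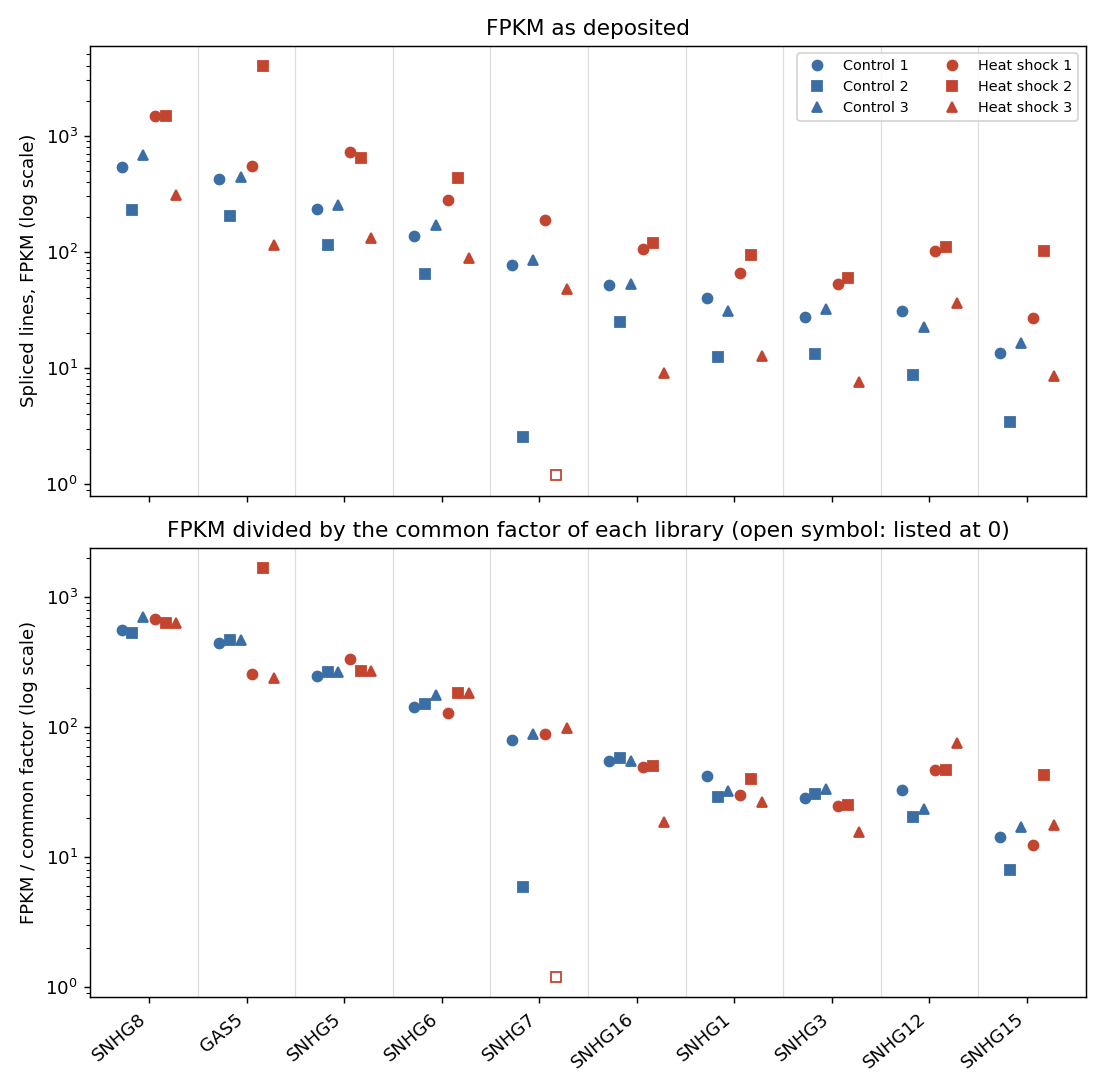
Values of the 10 host genes in each library, as deposited (upper plot) and divided by the common factor (lower plot), in FPKM on a log axis, with control libraries in blue and heat shock libraries in red and genes ordered by their control mean on the lower plot. As deposited, heat shock 1 and 2 are high and control 2 and heat shock 3 are low for nearly every gene, and after division the spread is narrower, with a ratio of highest to lowest library from 1.34 for SNHG8 to 7.002 for GAS5, while SNHG7 is at 5.96 in control 2 and listed at 0 in heat shock 2 (open symbol).

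SNHG8, the host of SNORA24, had the highest mean of the group in the control libraries by summed FPKM. It was at 534, 228 and 678 FPKM in the control and at 1477, 1490 and 309 FPKM in the heat shock libraries. Heat shock 1 and 2 lay above every control, and heat shock 3 lay between them, so the groups overlapped. After division by the common factor the values were 563, 531 and 712 against 685, 632 and 639, and the ratio of the highest to the lowest library fell from 6.53 to 1.34. The log2 fold change was 1.01 (SE 0.91) as deposited and 0.13 (SE 0.12) after division.

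SNHG5, which carries SNORD50A and SNORD50B, was listed in 5 of the 6 libraries as its annotated 6-exon form alone. Its values were 234, 115 and 253 FPKM in the control and 721, 638 and 130 FPKM in the heat shock libraries. After division the control libraries were at 246, 268 and 266 and the heat shock libraries at 335, 271 and 270.5. The groups did not overlap on this scale, though heat shock 2 and 3 lay only just above the highest control. The log2 fold change after division was 0.16 (SE 0.11, adjusted p = 0.937 by limma). In heat shock 1 a 4-exon assembled line added 228 FPKM, and with annotated lines alone the log2 fold change was -0.0051.

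SNHG6, the host of SNORD87, was at 137, 64.7 and 169 FPKM in the control and 278, 435 and 89.1 FPKM in the heat shock libraries. After division it was at 144, 150.4 and 178 against 129, 185 and 184, which overlapped, with a log2 fold change of 0.06 (SE 0.17). The gene MCMDC2 overlaps it on the opposite strand, and the preparation kit is named without a strand-specific step, so reads of overlapping genes on opposite strands could not be told apart.

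GAS5, a gene named for its rise in growth-arrested cells, varied most between the heat shock libraries. Its values were 424, 202 and 445 FPKM in the control and 551, 3949 and 116 FPKM in the heat shock libraries. On the divided scale the controls were at 448, 469 and 467 and the heat shock libraries at 256, 1675 and 239. Heat shock 2 thus lay above all controls and heat shock 1 and 3 below them, and the log2 fold change was 0.02 (SE 0.74). In heat shock 2, 95.6% of the value came from 1 assembled line of 3 exons and 232 nt, listed at 3773 FPKM. The annotated 12-exon form was listed in every library, at 96.2, 40.4 and 59.0 FPKM in the control and 194, 175 and 71.8 FPKM in the heat shock libraries. Leaving out heat shock 2 brought the log2 fold change after division to -0.90.

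SNHG1, the host of SNORD22 and of SNORD25 to SNORD31, was at 40.3, 12.6 and 30.7 FPKM in the control and 65.5, 94.5 and 12.8 FPKM in the heat shock libraries. After division the values were 42.5, 29.3 and 32.2 against 30.4, 40.1 and 26.4 and overlapped, with a log2 fold change of -0.10 (SE 0.22). Its annotated 11-exon form took between 7.46 and 12.6 FPKM in all 6 libraries, and the rest came from assembled lines of 2 to 10 exons. With annotated lines alone its log2 fold change after division was -0.42.

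SNHG3 and SNHG16 were the members whose heat shock values lay below every control after division. SNHG3 was at 28.8, 30.9 and 33.8 in the control and 24.6, 25.2 and 15.7 in the heat shock libraries, a log2 fold change of -0.52 (SE 0.22, adjusted p = 0.937 by limma). As deposited the same gene was at 27.3, 13.3 and 32.2 FPKM against 53.1, 59.5 and 7.57 FPKM, so its direction depended on the scale. SNHG3 overlaps RCC1 on the same strand, and assembled spliced lines that Cufflinks had grouped with both genes, 4.82 FPKM in control 2, 13.7 in control 3 and 5.99 in heat shock 3, were counted to neither. 

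SNHG16, the host of SNORD1A, SNORD1B and SNORD1C, was at 54.8, 58.2 and 55.4 in the control and 49.1, 50.7 and 18.8 in the heat shock libraries after division. As deposited it was at 52.0, 25.02 and 52.8 FPKM against 106, 119.5 and 9.09 FPKM, higher in 2 heat shock libraries and lowest in the third. The lower mean came mainly from heat shock 3: without it the log2 fold change after division went from -0.62 to -0.17. In that library a single-exon line at 18.8 FPKM, a value before division, was listed in the locus beside the spliced one. With single-exon lines included and the factor recomputed, SNHG16 was at 55.5, 57.7 and 55.2 in the control and 49.7, 51.6 and 57.3 in the heat shock libraries, so the groups overlapped, and the log2 fold change was -0.086.

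SNHG7, the host of SNORA17A and SNORA17B, was listed at 76.4, 2.56 and 84.6 FPKM in the control and at 190, 0 and 48.1 FPKM in the heat shock libraries. Although no spliced line was above 0 in heat shock 2, a single-exon line at its locus was listed there at 369.8 FPKM, and control 2 had such a line at 49.0 FPKM. With single-exon lines included, the log2 fold change as deposited turned from -0.44 to 1.11, and after division from -0.84 to 0.24.

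SNHG15, the host of SNORA9, was at 13.5, 3.41 and 16.3 FPKM in the control and 27.1, 102 and 8.55 FPKM in the heat shock libraries. After division it was at 14.3, 7.92 and 17.1 against 12.6, 43.3 and 17.7, so heat shock 2 and 3 lay above the controls and heat shock 1 among them. In heat shock 2 the annotated form was listed at 0, and the value came from 2 assembled lines of 2 exons at 42.9 and 59.3 FPKM. The log2 fold change after division was 0.73 (SE 0.50), and leaving out 1 library moved it between 0.24 and 1.09. Heat shock 1 also listed a single-exon line at 53.0 FPKM in the locus. With single-exon lines included and the factor recomputed, SNHG15 was at 21.7, 18.7 and 17.1 in the control and 37.6, 44.2 and 23.6 in the heat shock libraries, which did not overlap, with a log2 fold change of 0.80.

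**Figure D2:**
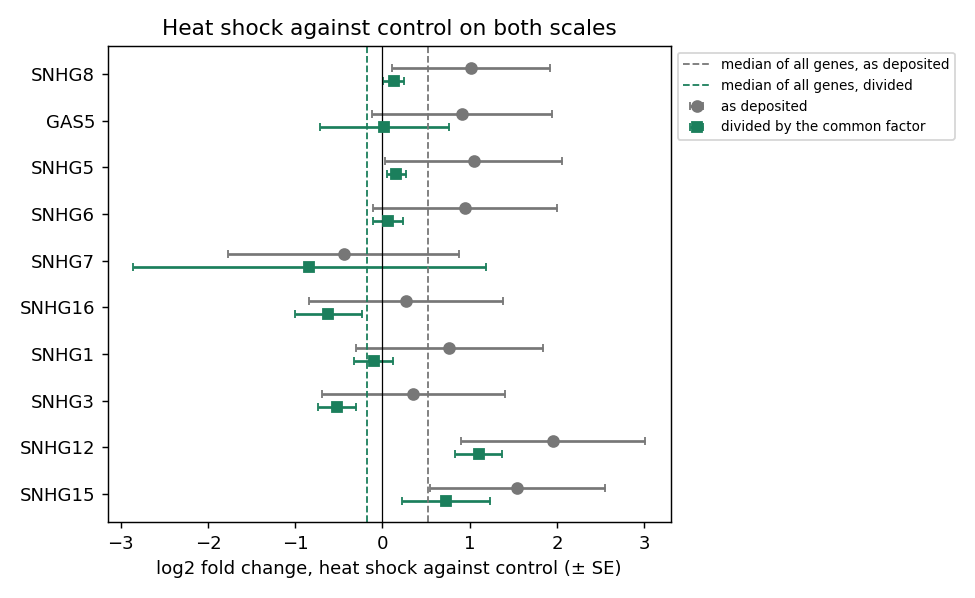
Log2 fold change of heat shock against control for the 10 host genes with its standard error from limma, as deposited (grey circles) and divided by the common factor (green squares), with the median of all genes tested as dashed lines at 0.52 and -0.18. The standard errors narrow after division except for SNHG7, and SNHG12 lies farthest to the right on both scales, at 1.95 and 1.10.

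SNHG12, the host of SNORA16A, SNORA44, SNORA61 and SNORD99, had the largest positive difference of the 10 on both scales. It was at 31.2, 8.74 and 22.5 FPKM in the control and 101, 111 and 36.5 FPKM in the heat shock libraries. Every heat shock library lay above every control, as it did after division, at 32.9, 20.3 and 23.6 against 46.9, 47.0 and 75.5. The log2 fold change was 1.95 (SE 1.06) as deposited and 1.10 (SE 0.27) after division, with an unadjusted p of 0.00579 from limma and an adjusted p of 0.937. 

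The annotated 6-exon RNA made up 74.3% of the value in control 2 and 71.4% in control 3, but 24.4% in control 1 and at most 18.4% in the heat shock libraries. It was at 7.63, 6.50 and 16.04 FPKM in the control and at 0, 20.4 and 5.20 FPKM in the heat shock libraries. A 2-exon assembled line with SNORA61 inside its exons was listed at 85.0 FPKM in heat shock 1, at 90.5 FPKM in heat shock 2 and at 23.6 FPKM in control 1, and 5-exon lines that hold the same snoRNA were at 2.24 and 6.43 FPKM in control 2 and 3. Without the lines whose exons hold at least 50% of a snoRNA, an alternative chosen after seeing the data, SNHG12 was at 8.05, 15.1 and 16.8 in the control and 0, 8.66 and 75.5 in the heat shock libraries after division. The groups then overlapped, and the log2 fold change went from 1.10 to -0.60. With annotated lines alone it was -1.48. The 75.5 of heat shock 3 without snoRNA-holding lines depended on the 50% cut. Its 2 assembled lines end at chr1:28906327, inside SNORA61, but hold less than 50% of it and so were kept.

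**Figure D3:**
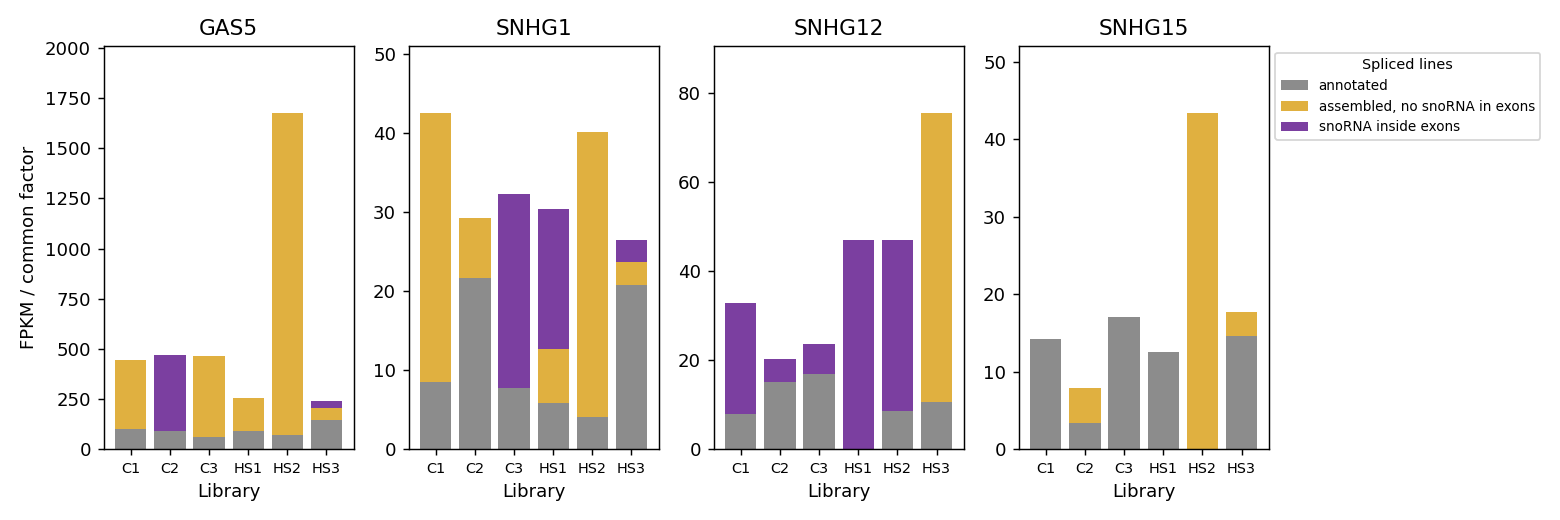
What the values of GAS5, SNHG1, SNHG12 and SNHG15 are made of in each library (C, control; HS, heat shock), in FPKM divided by the common factor, with annotated lines in grey, assembled lines that hold less than 50% of any snoRNA in yellow and lines whose exons hold at least 50% of a snoRNA in purple. In SNHG12 all of heat shock 1 and 81.6% of heat shock 2 are purple, and in GAS5 the tall bar of heat shock 2 is 1 assembled line.

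Such composite values were common in the group. Of the 59 member values above 0, 21 had an assembled line as their largest part, and 12 held a line with a snoRNA inside its exons, in GAS5, SNHG1, SNHG7 and SNHG12. In GAS5 this was a 2-exon line over SNORD47 that made up 80.0% of control 2 and an 11-exon line that made up 12.98% of heat shock 3. In SNHG1 it was a 2-exon line over SNORD22 that made up 75.7% of control 3 and 58.4% of heat shock 1. SNORA16A, SNORA17A, SNORA17B, SNORD28 and SNORD29 were also inside the exons of a spliced line in at least 1 library. In SNHG7 it was the annotated 2-exon form, which spans SNORA17A and SNORA17B, at 2.56 FPKM in control 2 and 2.68 FPKM in heat shock 3. Whether the assembled lines are retained introns, precursors or joined fragments was not tested. 

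The snoRNAs themselves were mostly not listed. A single-exon line over at least 50% of the snoRNA and at most 2 times its length was present in at least 1 library for 11 of the 33, and 22 had none in any library. SNORA16A was listed in 4 libraries, at 7.30 to 68.2 FPKM, and SNORD22, SNORD50B, SNORD99 and SNORA9 were listed in 3. The confidence intervals that Cufflinks gave these lines began at 0 in all cases other than SNORA16A in heat shock 2 and SNORA9 in heat shock 1, so no level of a mature snoRNA was read from them.

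SNORA73B in SNHG3 was the exception, with a line in all 6 libraries. It was listed at 255, 22.7 and 343 FPKM in the control and at 897, 571 and 124 FPKM in the heat shock libraries, from lines of 125 to 263 nt that carry no strand. Control 2, with the longest line, was the lowest. After division the values were 269, 52.9 and 360 against 416, 242 and 257, and the groups overlapped. Its spliced host, at 24.6 to 33.8 on this scale in the 5 libraries other than heat shock 3, was lower than the intronic line in every library. The host form has 2238 nt, so FPKM of lines of very unequal length are set side by side, and no amount was read from this.

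The share of each locus that lay in spliced lines, weighted by FPKM times exonic length, is a ratio within a library and needs no common factor. The rest is single-exon lines, which include the snoRNA lines described above. A lower share is therefore no measure of how well the host RNA was spliced. It was at least 90% in every library for GAS5, SNHG5, SNHG6 and SNHG8. No locus reached an adjusted p below 1 (exact permutation test, two-sided, adjusted over 10 loci), and with 3 libraries against 3 the smallest p the test can give is 0.1. GAS5 gave that value, at 97.6%, 93.0% and 93.1% in the control against 100%, 99.3% and 100% in the heat shock libraries, and its groups did not overlap. The single-exon line counted was SNORD47 in control 1 (57.1 FPKM) and heat shock 2 (88.8 FPKM), and SNORD80 in control 2 (88.2 FPKM). The confidence intervals of these lines began at 0, so the difference is no measure of unspliced GAS5. In control 3 the line lay on the opposite strand. With strand-matched lines alone, control 3 was at 100%, and the groups overlapped. SNHG3 went the other way, at 56.3%, 75.02% and 59.2% against 48.7%, 58.5% and 33.7% (p = 0.2, exact permutation test), with overlapping groups. The single-exon lines at SNHG3 carried no strand in every library other than heat shock 3. With strand-matched lines alone, SNHG3 was at 100% in those libraries and at 61.7% in heat shock 3. Lines without a strand, SNORA73B among them, are dropped there, so the 100% was fixed by the filter and is no check of the share. SNHG12 was at 64.9%, 39.4% and 90.6% against 81.5%, 87.1% and 100% (p = 0.3, exact permutation test), also overlapping.

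**Figure D4:**
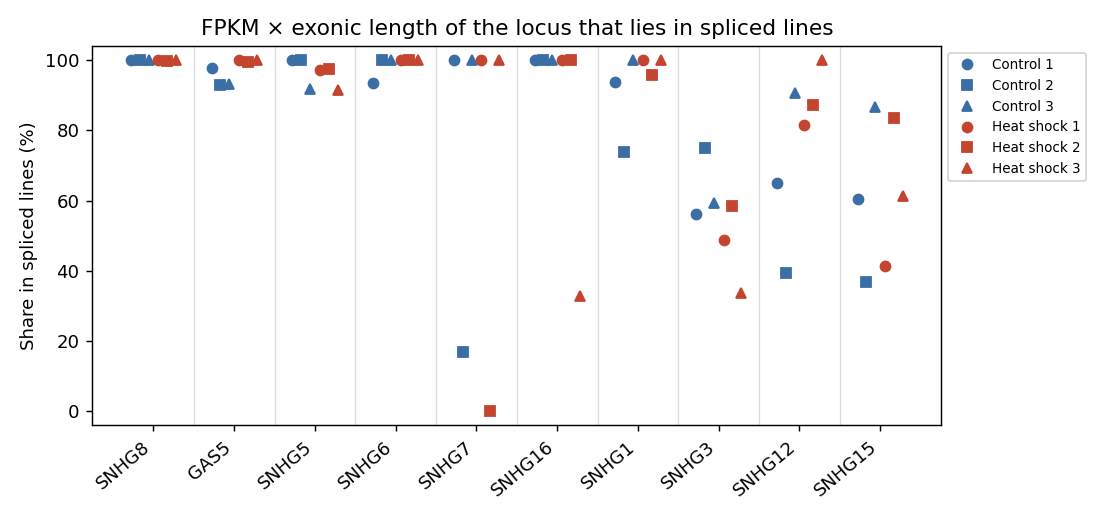
Share of FPKM times exonic length at each host locus that lies in spliced lines, in percent, with 1 symbol for each of the 3 control (blue) and 3 heat shock (red) libraries. The rest is single-exon lines, snoRNA lines among them. GAS5, SNHG5, SNHG6 and SNHG8 stay at 90% or more, SNHG7 drops to 16.9% in control 2 and 0% in heat shock 2, SNHG16 to 32.8% in heat shock 3, and SNHG12, SNHG15 and SNHG3 spread widely in both groups.

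By level in the control libraries after division, the order was SNHG8, GAS5, SNHG5, SNHG6, SNHG7, SNHG16, SNHG1, SNHG3, SNHG12 and SNHG15, from 602 ± 96.6 (SD, n = 3) down to 13.1 ± 4.71 (SD, n = 3) in length-scaled units. The control values of neighbours in this order overlapped in 3 of the 9 pairs: SNHG7 with SNHG16, SNHG1 with SNHG3 and SNHG3 with SNHG12. As deposited, all 9 pairs overlapped. The order depended on how lines of unequal length were summed. Weighted by length, GAS5 was at 296, 301 and 303 in the control libraries and SNHG8 at 246, 233 and 315, so that GAS5 had the higher mean, and SNHG7, at 28.1, 5.90 and 36.3, had a lower mean than SNHG16, SNHG3, SNHG1 and SNHG12. In bulk RNA, fewer cells with a transcript and less of it per cell cannot be told apart.

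Leaving out control 2 and heat shock 3, the libraries of lowest common factor, was an alternative chosen after seeing the data. As deposited, SNHG5, SNHG8, SNHG12 and SNHG16 were then called higher (log2 fold changes of 1.47, 1.30, 1.96 and 1.09, each with an adjusted p of 0.0466 by limma), but so were 9.36% of all genes, and 0.697% were called lower. Divided by the common factor, no gene was called in these 4 libraries, and the log2 fold changes of the 4 members were 0.23, 0.06, 0.73 and -0.14.

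The authors' pooled table gives 1 value for each group without replicates. For the 10 host loci, their pooled heat shock value was 3.90 times (SNHG3) to 6.35 times (SNHG15) the pooled control value, with a median of 5.06. Several loci hold more than the host: the table joins SNHG3 with RCC1, SNHG15 with SNORA9, SNHG12 with SNORA61 and SNHG7 with SNORA17 and SNORA43. By position, the locus of SNHG6 extends over MCMDC2, that of SNHG12 over TRNAU1AP and that of SNHG7 over DIPK1B. The locus of SNHG16 also extends over another protein-coding gene. For the 2559 loci above 10 FPKM in the pooled control, the median ratio was 4.46, with 5% of loci under 0.937 and 5% above 5.40. The ratio of GAS5 was 5.01, from 248 to 1245 FPKM as pooled by the authors, and that of SNHG8 was 5.11. SNHG1, SNHG3 and SNHG16 lay below that median and the other 7 above it, and how the table was scaled is not given in the sources used here.

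Other genes of the snoRNA pathway were compared by lists chosen with earlier results of these data known. No gene of any list was called in either fit. Of 14 other long non-coding snoRNA hosts, 8 were tested, with medians of 0.94 as deposited and 0.07 after division, beside 0.52 and -0.18 for all genes. At an unadjusted p under 0.05 (limma) 2 were higher as deposited and 1 after division, against 3.97% and 0.929% of all genes. The 2 as deposited had low control means, of 1.40 and 2.62 FPKM. SNHG9, the most abundant, was at 663, 666 and 778 in the control and 719, 665 and 514 in the heat shock libraries after division. ZFAS1 was at 133, 129.9 and 148 against 173, 189 and 62.1, and DANCR at 49.5, 50.3 and 47.8 against 55.3, 51.1 and 59.1, the only one of these 3 without overlap.

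Protein-coding hosts, which include ribosomal protein genes, were tested in 20 of 20 cases, with a median of 0.89 as deposited and 0.01 after division. At an unadjusted p under 0.05 (limma), 1 was higher as deposited, and 1 was higher and 1 lower after division. Over all genes these shares were 3.97%, 0.929% and 3%. RPL21, a protein of the large ribosomal subunit, was at 1452, 1511 and 1464 in the control and 1441, 1639 and 1483 in the heat shock libraries after division, and the groups overlapped.

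The proteins of the snoRNA particles were measured in full. The 4 box C/D proteins had medians of 1.077 and 0.22. Their log2 fold changes were positive on both scales, as were 78.9% of all genes as deposited and 32.2% after division, but after division SNU13 was at 0.11 (SE 0.11), NOP58 at 0.18 (SE 0.47) and NOP56 at 0.26 (SE 1.09). FBL, the methyltransferase fibrillarin, was at 171, 179.6 and 214 in the control and 692, 745 and 169 in the heat shock libraries after division, so that heat shock 1 and 2 were high and heat shock 3 was the lowest of all 6, and its log2 fold change was 1.24 (SE 0.57, adjusted p = 0.937 by limma). NOP56, a core protein that is itself a snoRNA host, ranged from 20.5 to 467 within the controls. The 4 box H/ACA proteins had medians of 0.81 and -0.04, and NHP2 and NOP10, both core subunits, overlapped between groups, at log2 fold changes of -0.08 (SE 0.09) and -0.09 (SE 0.12) after division.

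Assembly factors of the particles had a median of 0.62 as deposited (13 tested) and -0.18 after division (12 tested), with none passing an unadjusted p of 0.05. RUVBL2, an ATPase of the assembly complex, had a log2 fold change of 0.28 (SE 0.27) after division and NOLC1, a nucleolar chaperone of the particles, -0.45 (SE 0.21). Factors of nonsense-mediated decay and of the exon junction complex, the pathway that acts on the spliced host RNAs, were tested in 15 of 16 cases, with medians of 0.63 and -0.06, and again none passed. EIF4A3, the helicase of the exon junction complex, had a log2 fold change of -0.75 (SE 0.42) and UPF3B, a decay factor bound to that complex, of 0.23 (SE 0.17) after division.

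Among 784 other genes above 10 FPKM in all 6 libraries, those whose profile was most like the mean log2 level of the 10 hosts after division were SSNA1, SET, CALR, HNRNPK and NPC2, with Pearson correlations of 0.92 to 0.97 over the 6 libraries. That mean lay between 5.94 in control 2 and 6.52 in control 3, and the points share their library and its factor, so the likeness is given as a description. The mean includes SNHG7, whose spliced lines were at 5.96 in control 2 and at 0 in heat shock 2 after division. These values lowered the mean in both libraries, and a likeness without SNHG7 was not computed.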

How the data were processed

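Total RNA was depleted of ribosomal RNA and prepared with a kit whose name carries no strand step. The submitters' processing notes name FastQC 0.10.1, Trimmomatic 0.3.0, TopHat2, Cufflinks 2.0.2, Cuffdiff and the build hg19. The authors deposited FPKM values per transcript from Cufflinks for each library and a Cuffdiff table with a pooled FPKM for each group, whose p-values and fold changes were not used. The members and gene lists were chosen with earlier results of these data known. Spliced lines (2 or more exons) were summed per gene, with 96.7% of the annotated accessions given a RefSeq symbol, and assembled lines were assigned by the gene group Cufflinks gave them. Lines placed in a group of more than 1 gene were left out.

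The test was limma (version 3.58.1, under R 4.3.3; lmFit, eBayes with trend), run for genes whose mean reached 1 FPKM on log2(FPKM + 1), which understates changes of low genes, as deposited and after division by the common factor, with Benjamini-Hochberg adjustment and a threshold of 0.05. P-values measure the spread between the 3 libraries of each group. The test was tried on simulated data. Spliced shares were compared with SciPy by an exact permutation test. Depth was not given as counts, so no counting intervals were computed, and precision rests on the 3 libraries per group. Named were all 10 members, and of each list the called genes and the 2 (for other host genes 3) of highest mean FPKM, and the 5 genes most like the mean of the members. One gene named by this rule is not reported here. Sequences came from GRCh37, which no transcript on chromosomes 1 to 22, X and Y exceeded, and from RefSeq. SNORA73A was not analysed here. No sequence of SNHG6 is shown.

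Alternatives were a pseudocount of 0.1, no minimum or a minimum of 10 FPKM, single-exon lines included, annotated lines alone, eBayes without trend, the replicate number as a block, median-of-ratios factors, TPM, a common factor over genes above 30 FPKM, plain FPKM or strand-matched lines for the spliced share, and leaving out each library. Values weighted by length, members without snoRNA-holding lines, the 4 libraries without control 2 and heat shock 3, and start sites on hg19 were added after seeing the data.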

Additional observations from a re-analysis of the deposited data

How the results depend on the processing

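As deposited, the count of genes called higher moved from 3 to 1 with a pseudocount of 0.1, annotated lines alone, median-of-ratios factors or TPM, to 0 with no minimum, a minimum of 10 FPKM or eBayes without trend, and to 1047 without control 2 and heat shock 3, with 78 lower and 32 genes of the lists called. The count of genes called lower moved from 0 to 1 with single-exon lines and to 3 with length weighting. Leaving out 1 library gave 5 to 21 genes higher, 1 to 5 lower and 0 to 1 of the lists. Divided by the common factor, no alternative called a gene.

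No pairing by replicate number was visible (correlations of same-numbered deviations of 0.09, -0.22 and -0.23 as deposited). The labels do not say whether libraries of the same number were handled together. The fit with the replicate block called 6 genes higher in place of 3. The block changed no call of a member.

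As deposited, the direction turned for SNHG7 (1.11 with single-exon lines, 0.96 with annotated lines alone, 0.14 without snoRNA-holding lines), SNHG12 (-1.02 with annotated lines alone, -0.15 without snoRNA-holding lines), SNHG15 (-0.49 with annotated lines alone), SNHG3 (-0.18 with median-of-ratios factors, -0.34 with TPM) and SNHG16 (-0.27 and -0.43). Divided by the common factor it turned for SNHG7 (0.24, 0.57 and 0.070 under the same 3 settings), SNHG12 (-1.48 and -0.60), SNHG15 (-0.82), SNHG5 (-0.0051) and SNHG8 (-0.096) with annotated lines alone, SNHG1 (0.083) without snoRNA-holding lines, SNHG6 (-0.053) without control 2 and heat shock 3, and GAS5 (-0.0055) with a factor over genes above 30 FPKM.

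With 1 library left out, the log2 fold changes as deposited spanned -0.41 to 2.13 for GAS5, -0.14 to 1.27 for SNHG3, -0.36 to 1.43 for SNHG16 and -2.03 to 1.76 for SNHG7. After division they spanned -0.90 to 0.50 for GAS5, -0.26 to 0.050 for SNHG1, -0.024 to 0.23 for SNHG6 and -2.04 to 1.35 for SNHG7. The spliced share differed by -11.5 to 13.5 points for SNHG15, -4.63 to 0.034 for SNHG5 and -33.3 to 27.7 for SNHG7. The cause was not tested. The absence of counts limits all values: a line listed at 0 may be one that was not assembled.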
